A study of Mus musculus with 6 samples.

Results

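The MAP kinase phosphatases are the 10 dual-specificity phosphatase genes Dusp1, Dusp2, Dusp4, Dusp5, Dusp6, Dusp7, Dusp8, Dusp9, Dusp10 and Dusp16. They were found by gene symbol among the 51912 Ensembl gene identifiers of a count table, and each of the 10 symbols matched 1 identifier. The cells were R1 mouse embryonic stem cells, an established line, which had been kept in 2iLIF medium, in which a MEK inhibitor, a GSK3 inhibitor and the cytokine LIF hold naive pluripotency. All 6 libraries come from cells moved out of it into N2B27, which contains no serum, to which FGF2 was added at 100 ng/ml. Of these, 3 libraries were made after 24 h and 3 after 48 h, and the time is the one labelled difference between the groups. Cells still in 2iLIF and cells in N2B27 without FGF2 were not analysed here, so a difference between the times cannot be assigned to FGF2, to the release from the inhibitors or to time in culture. The labels do not say that the replicates were separate cultures, so the p-values measure the spread between these libraries, which may be technical.

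MAP kinases are switched on by phosphorylation of a threonine and a tyrosine in the activation loop, and the dual-specificity phosphatases of this family remove both phosphates. The family falls into 3 classes. Dusp1, Dusp2, Dusp4 and Dusp5 encode nuclear enzymes that are mostly inducible, Dusp6, Dusp7 and Dusp9 encode cytoplasmic enzymes that prefer ERK, and Dusp8, Dusp10 and Dusp16 encode enzymes that prefer the stress kinases JNK and p38. Several of the genes are themselves transcribed in response to ERK signalling and so act as negative feedback, for which Dusp6 is the textbook case downstream of FGF receptors. In embryonic stem cells FGF and ERK signalling promotes the exit from naive pluripotency.

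The libraries held between 19574969 and 23133148 estimated counts, and the 10 members together took between 0.0223% and 0.0284% of them. All 10 members had counts within 1e-09 of a whole number in every library, although the table holds estimated counts. All 9 markers chosen for pluripotent stem cells were at or above 1 CPM (a count as a share of the TMM-scaled library total, times 1000000) in every library. Their summed level was 4323 to 4418 CPM at 24 h and 3352 to 3441 CPM at 48 h. Over the libraries Nanog was between 167 and 723 CPM, Esrrb between 204 and 582, and Zfp42 between 467 and 1042. Each of these was highest in a 24 h library and lowest in a 48 h library. Lin28a was between 187 and 568 CPM, Otx2 between 55.2 and 199, and Fgf5 between 1.65 and 56.2. These went the other way, each lowest in a 24 h library and highest in a 48 h library. Pou5f1 (1041 to 1113 CPM), Sall4 (301 to 360 CPM) and Sox2 (307 to 411 CPM) varied less. Summed markers of other cell types were far lower. The 7 primitive endoderm genes summed to between 9.36 and 11.1 CPM at 24 h and between 5.67 and 6.44 CPM at 48 h, with Foxa2 at no more than 3 counts in a library and Gata4 between 2.06 and 6.40 CPM. The 6 trophectoderm genes summed to between 31.9 and 32.5 CPM and then to between 10.6 and 10.7 CPM, with Cdx2 at no more than 1 count, Krt8 between 4.65 and 20.9 CPM and Tfap2c between 1.28 and 6.70 CPM over the libraries. The 7 genes of fibroblast feeder cells summed to between 4.05 and 6.02 CPM and then to between 2.07 and 3.07 CPM, with Postn at 0 counts in every library and Pdgfrb between 0.548 and 2.67 CPM. The 5 mesoderm and endoderm genes summed to between 15.7 and 18.5 CPM and then to between 12.8 and 14.8 CPM, with T at no more than 2 counts and Eomes, the main contributor, between 12.5 and 17.6 CPM. The 4 neural genes summed to between 126.5 and 136.2 CPM and then to between 143.1 and 155.5 CPM. Over the libraries Tubb3 was between 50.5 and 84.2 CPM and Nes between 21.8 and 27.3 CPM, each highest in a 24 h library and lowest in a 48 h library. Sox1 was between 14.6 and 37.6 CPM and Pax6 between 10.5 and 34.8 CPM, each lowest in a 24 h library and highest in a 48 h library. These sums do not show the direction of single genes. The part of these shifts in the results on the phosphatases was not tested.

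Between 24 h and 48 h, 7 of the 10 members rose and 1 fell, where 30.9% of all tested genes rose and 31.9% fell. Dusp4 rose most, 4.09-fold. It is the member whose change exceeded 1.5-fold in a separate test, which 12.7% of all tested genes passed. Dusp1, Dusp5, Dusp10 and Dusp6 rose between 1.31-fold and 1.75-fold, Dusp9 rose 1.13-fold, and Dusp8 rose 2.64-fold at a level close to the lowest that could be tested. Dusp16 fell, and was 1.19-fold higher at 24 h. Dusp7 did not pass the test, and Dusp2 had too few counts to be tested.

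These calls are from edgeR's quasi-likelihood test on the whole table, with Benjamini-Hochberg adjustment over all 14889 genes that passed the filter on low counts, and a gene is called at an adjusted p under 0.05. Of the 10 members 9 passed that filter and 8 of these were called, where 62.8% of all tested genes were called. In 1 direction, 7 members were called higher at 48 h, against 30.9% of all tested genes, and 1 was called lower, against 31.9%. The median log2 fold change of the 9 tested members was 0.59, and that of all tested genes was -0.01. Dusp8 passed the filter only through its 48 h libraries, so its inclusion itself asked for a difference, and the count of tested members is not a count of the family. For 8 members no 48 h library fell within the range of the 24 h libraries, against 66.9% of all tested genes. In a test of whether the change exceeds 1.5-fold (glmTreat in edgeR), 1 member passed, which was Dusp4 (adjusted p = 2.39e-13), against 12.7% of all tested genes. In bulk RNA a change in the level per cell and a change in the number of cells that carry the transcript cannot be told apart.

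**Figure D1:**
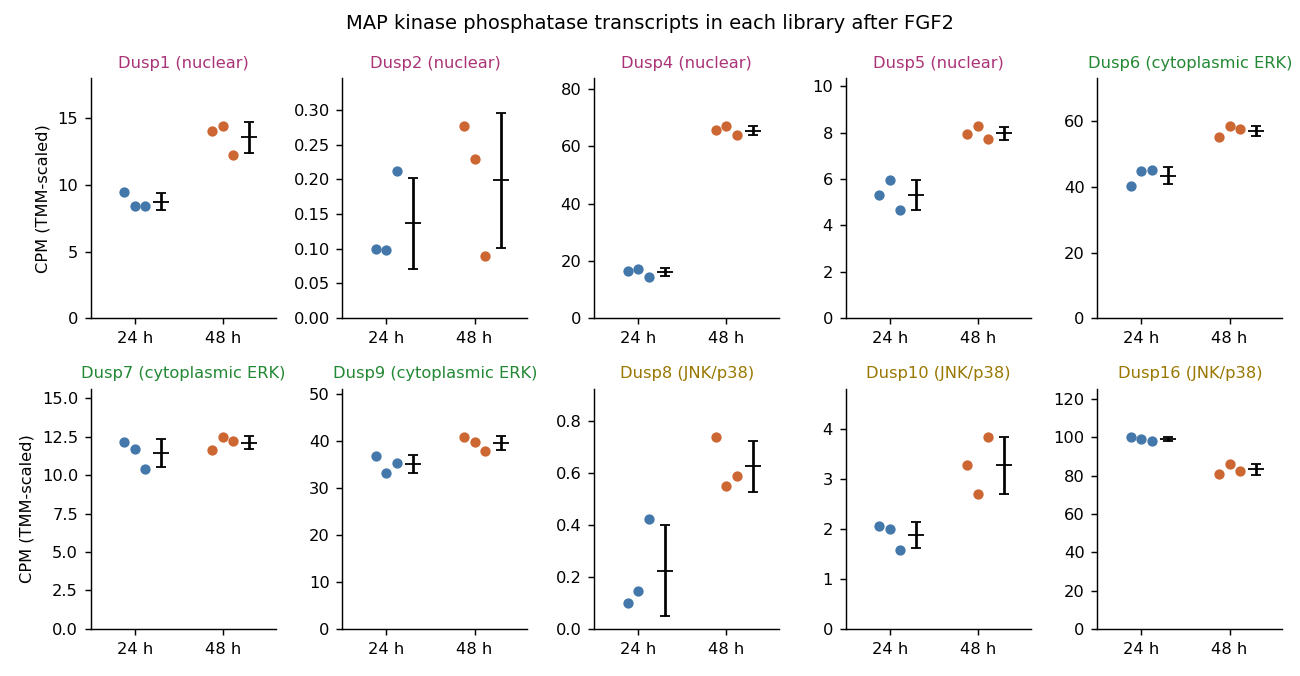
Level of each of the 10 MAP kinase phosphatase genes in CPM (TMM-scaled, linear axes from 0), with 1 point per library (left to right replicates 1, 2 and 3) and the mean with SD (n = 3) beside them. The 24 h and 48 h points lie apart in 8 panels and overlap for Dusp2 and Dusp7, and Dusp16 is the member with all 48 h points below the 24 h points.

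Among the nuclear enzymes, 3 of 4 were tested and all 3 rose, where 30.9% of all tested genes were called higher. The classes were not tested as sets. Dusp4 (ENSMUSG00000031530, chr8:34807297-34819894 on the plus strand of GRCm38) encodes an ERK and JNK phosphatase of the nucleus. Its level was 16.6, 17.2 and 14.5 CPM in replicates 1, 2 and 3 at 24 h and 65.6, 66.9 and 63.8 CPM at 48 h. The 48 h libraries lay far above those of 24 h and close to each other. This is a log2 fold change of 2.03 ± 0.05 (standard error, n = 3 at each time), with a 95% interval from 1.92 to 2.14 (adjusted p = 6.39e-15), and 1.24% of all tested genes had a larger increase. Its counts lay between 332 and 352 at 24 h and between 1415 and 1464 at 48 h.

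Dusp1 (ENSMUSG00000024190, chr17:26505590-26562128, minus strand) encodes the founding member of the family, an enzyme induced by growth factors and by stress. Its level was 9.46, 8.40 and 8.39 CPM at 24 h and 14.1, 14.4 and 12.2 CPM at 48 h. All 48 h values lay above all 24 h values, and replicate 3 was the lowest of the 48 h libraries. Its log2 fold change was 0.63 ± 0.09 (standard error), with an interval from 0.44 to 0.83 (adjusted p = 1.3e-05). The change was smaller than that of Dusp4, and the intervals of both fold changes do not meet. The annotated exons of Dusp1 share 11 bases with Ergic1 on the opposite strand, which had a log2 fold change of -0.29, and whether reads were assigned by strand is not given in the sources used here.

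Dusp5 (ENSMUSG00000034765, chr19:53529109-53542431, plus strand) encodes a nuclear phosphatase specific for ERK. Its level was 5.31, 5.96 and 4.66 CPM at 24 h and 7.96, 8.27 and 7.71 CPM at 48 h. The groups did not overlap, and the 48 h libraries lay closer together than those of 24 h. Its log2 fold change was 0.59 ± 0.11 (standard error), with an interval from 0.36 to 0.82 (adjusted p = 0.000153). Over 547 bases the exons of Dusp5 are shared with an antisense gene, AC137853.2, which was not analysed here, so the count of Dusp5 may hold its reads if strand was not used.

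Dusp2 (ENSMUSG00000027368, chr2:127336159-127338376, plus strand) encodes a nuclear phosphatase best known from activated immune cells. It had 2, 2 and 5 counts at 24 h and 6, 5 and 2 counts at 48 h, which overlap. Over the summed libraries the ratio of 48 h to 24 h was 1.41, with a 95% exact counting interval from 0.556 to 3.73. That interval covers counting error only, and a difference was not detectable at this depth.

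Promoter windows of RefSeq (GRCm38.p6, 250 bases before to 50 after the RefSeq start site) were found for 8 of the 10 members, the exceptions being Dusp4 and Dusp9. The windows of 3 members that rose (Dusp1, Dusp5 and Dusp6) and of Dusp16, which fell, are shown 5′ to 3′ on the strand of the gene, to set the sequence before genes that moved together beside that of the one that moved the other way. Capitals mark matches to the letters searched, on either strand. The ETS factors, which ERK phosphorylates in several cases, were represented by CCGGAAG. The cyclic AMP response element (CRE) was searched as TGACGTCA. The site of AP-1, the Fos and Jun dimer, was searched as TGANTCA. The GC box bound by Sp1 was searched as GGGCGG. The TATA box was searched as TATAAA, and the CArG box bound by serum response factor was searched by its usual consensus. Matches that touch or overlap run together in capitals. The windows lie at chr17:26508423-26508722 (Dusp1, minus strand), chr19:53528895-53529194 (Dusp5, plus strand), chr10:99262981-99263280 (Dusp6, plus strand) and chr6:134792579-134792878 (Dusp16, minus strand). The RefSeq starts of Dusp1, Dusp5, Dusp8 and Dusp10 lie inside the GENCODE intervals of these genes, which extend farther upstream. These windows are therefore not at the outermost annotated start.
Dusp1: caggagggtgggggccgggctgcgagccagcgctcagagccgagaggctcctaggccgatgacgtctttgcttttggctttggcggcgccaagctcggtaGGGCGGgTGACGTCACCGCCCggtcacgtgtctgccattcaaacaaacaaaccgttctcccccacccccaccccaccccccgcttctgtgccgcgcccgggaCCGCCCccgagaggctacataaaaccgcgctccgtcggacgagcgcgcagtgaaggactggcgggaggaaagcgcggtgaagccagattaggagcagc
Dusp5: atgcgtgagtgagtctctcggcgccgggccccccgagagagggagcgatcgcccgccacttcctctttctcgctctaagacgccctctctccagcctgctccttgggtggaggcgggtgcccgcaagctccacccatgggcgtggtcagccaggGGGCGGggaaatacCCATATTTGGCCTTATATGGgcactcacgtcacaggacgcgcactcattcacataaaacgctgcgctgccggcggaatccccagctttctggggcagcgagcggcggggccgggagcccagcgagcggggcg
Dusp6: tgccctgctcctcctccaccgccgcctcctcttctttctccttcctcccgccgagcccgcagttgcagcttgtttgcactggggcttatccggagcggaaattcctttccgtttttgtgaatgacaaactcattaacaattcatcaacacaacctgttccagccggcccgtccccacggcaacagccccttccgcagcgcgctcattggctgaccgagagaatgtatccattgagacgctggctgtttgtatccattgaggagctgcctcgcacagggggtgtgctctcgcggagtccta
Dusp16: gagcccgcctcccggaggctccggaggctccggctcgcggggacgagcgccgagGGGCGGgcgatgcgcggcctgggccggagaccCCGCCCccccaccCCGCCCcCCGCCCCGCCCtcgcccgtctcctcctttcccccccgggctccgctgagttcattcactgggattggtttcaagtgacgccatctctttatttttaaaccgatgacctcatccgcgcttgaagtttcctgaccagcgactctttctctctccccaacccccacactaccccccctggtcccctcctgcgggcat

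In the Dusp1 window 1 CRE starts 143 bases before the RefSeq start site and lies between a pair of GC boxes. The Dusp8 window, which is not shown, holds 2 CREs, and of 32851 RefSeq windows of this length 1.79% hold one. The Dusp5 window holds 2 adjoining CArG boxes, which start 82 and 72 bases before the RefSeq start site, and 1.63% of all windows hold such a box. The CArG box was added to the search after the sequences had been seen. A GC box is in 7 of the 8 members' windows and in 35.7% of all windows, and the Dusp16 window holds 5 matches, of which the last 2 overlap. The GC content of the 8 windows was between 57.3% (Dusp6) and 78.7% (Dusp7), and the share over all windows was not matched for it. The Dusp6 window holds none of the motifs searched. None of the 8 windows holds the ETS, AP-1 or TATA letters, which are in 8.86%, 7.81% and 13.6% of all windows. Other spellings of these sites were not searched, so a window without a match may still hold such a site. A match describes the letters of the window and says nothing of binding in these cells.

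Of the 3 cytoplasmic ERK phosphatases, 2 rose and 1 did not pass the test, where 30.9% of all tested genes were called higher. Dusp6 (ENSMUSG00000019960, chr10:99263231-99267489, plus strand), which encodes the ERK phosphatase known as MKP3, was at 40.4, 44.8 and 45.1 CPM at 24 h and at 55.3, 58.5 and 57.6 CPM at 48 h. Replicate 1 was the lowest library at each time, and the groups did not overlap. The increase was 0.39 ± 0.04 on the log2 scale (standard error), with an interval from 0.30 to 0.49 (adjusted p = 9.53e-07), or 1.31-fold.

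Dusp9 (ENSMUSG00000031383, chrX:73639419-73643514, plus strand) encodes MKP4, an X-linked ERK phosphatase. Its level was 36.8, 33.2 and 35.2 CPM at 24 h and 40.8, 39.8 and 37.8 CPM at 48 h. Replicate 3 of 48 h was only just above replicate 1 of 24 h, so the groups lay close together without overlap. The increase was 0.17 ± 0.05 on the log2 scale (standard error), with an interval from 0.07 to 0.27 (adjusted p = 0.00493). When libraries were scaled by their totals alone, the value was 0.11 and the call was lost (adjusted p = 0.0545). With an offset for the GC content and length of transcripts it was 0.29 (adjusted p = 4.07e-05), and these 2 values are the ends of the range over the alternatives.

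Dusp7 (ENSMUSG00000053716, chr9:106368632-106375724, plus strand), which encodes the closely related ERK phosphatase MKPX, was at 12.2, 11.7 and 10.4 CPM at 24 h and at 11.6, 12.5 and 12.2 CPM at 48 h. These values overlap. The log2 fold change was 0.09 ± 0.08 (standard error), with an interval from -0.09 to 0.26 (adjusted p = 0.38), so changes of up to 1.2-fold upward are within the interval. With an offset for the GC content and length of transcripts the value was 0.21 (adjusted p = 0.0398), and with the same offset and a replicate block it was 0.21 (adjusted p = 0.0525). Without replicate 3 of 24 h the value was 0.02 (adjusted p = 0.871).

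**Figure D2:**
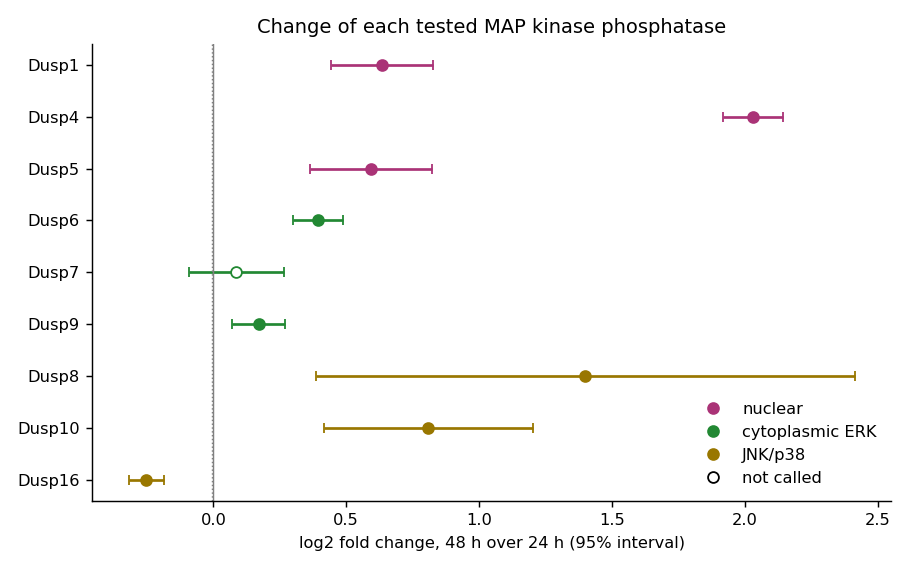
Log2 fold change of 48 h over 24 h for the 9 tested members, with bars for the 95% interval of the edgeR fit, coloured by class, open where the gene was not called. The dotted line is the median of all tested genes (-0.01). Dusp4 stands at 2.03, Dusp16 at -0.25 is the one below 0, the interval of Dusp7 spans 0, and that of Dusp8 is the widest.

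The 3 phosphatases of JNK and p38 moved in both directions, 2 up and 1 down. Over all tested genes 30.9% were called higher and 31.9% lower. The 2 that rose include Dusp8, which passed the filter only through its 48 h libraries. Dusp16 (ENSMUSG00000030203, chr6:134715468-134792625, minus strand), which encodes MKP7, a JNK phosphatase, was at 100.1, 99.1 and 98.2 CPM at 24 h and at 80.9, 86.1 and 82.5 CPM at 48 h. The 24 h libraries lay close together, and every 48 h library was below them. Its log2 fold change was -0.25 ± 0.03 (standard error), with an interval from -0.32 to -0.19 (adjusted p = 2.18e-06), and it was between -0.31 and -0.23 over the alternatives.

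Dusp10 (ENSMUSG00000039384, chr1:184013302-184075636, plus strand), which encodes MKP5, an enzyme for p38 and JNK, was at 2.05, 2.00 and 1.57 CPM at 24 h and at 3.27, 2.70 and 3.83 CPM at 48 h. The groups did not overlap, on 37 to 41 counts per library at 24 h and 59 to 85 at 48 h. Its log2 fold change was 0.81 ± 0.19 (standard error), with an interval from 0.42 to 1.20 (adjusted p = 0.0012).

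Dusp8 (ENSMUSG00000037887, chr7:142079490-142095843, minus strand) encodes a JNK and p38 phosphatase known mainly from brain and heart. It had 2, 3 and 10 counts at 24 h and 16, 12 and 13 counts at 48 h, so replicate 3 of 24 h stood near the 48 h libraries. The log2 fold change was 1.40 ± 0.48 (standard error), with an interval from 0.39 to 2.41 (adjusted p = 0.0177). The call was lost without replicate 1 of 24 h (1.07, adjusted p = 0.0788), without replicate 2 of 24 h (1.17, adjusted p = 0.0761), without replicate 1 of 48 h (1.27, adjusted p = 0.0624) and in DESeq2 (1.45, adjusted p = 0.0551), while without replicate 3 of 24 h the fitted value was 2.28, in a range of adjusted p from 0.00315 to 0.0788. Gm32786, a non-coding gene whose exons share 66 bases with Dusp8 on the opposite strand, had 0 counts in every library.

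Levels of different genes were compared per length, as CPM per kb of the longest annotated transcript. At 24 h Dusp16 was highest, at 19.4 ± 0.184 CPM per kb (SD, n = 3), followed by Dusp6 at 15.5 ± 0.948, Dusp9 at 12.9 ± 0.67 and Dusp4 at 5.87 ± 0.527. Dusp1 (3.78 ± 0.266) and Dusp7 (3.56 ± 0.281) came next and overlapped between libraries, and Dusp5 was at 2.15 ± 0.262 and Dusp10 at 0.671 ± 0.0954. Dusp2 and Dusp8 closed the order at 0.0845 ± 0.0404 and 0.0465 ± 0.0364 CPM per kb and overlapped too. All other neighbours in the order lay apart in every library.

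At 48 h the order of levels was led by Dusp4, at 23.9 ± 0.567 CPM per kb (SD, n = 3). Dusp6 stayed in the next place at 20.4 ± 0.577, and Dusp16 was now behind it at 16.3 ± 0.522, followed by Dusp9 at 14.5 ± 0.55. The lower places were held by Dusp1 (5.87 ± 0.508), Dusp7 (3.77 ± 0.133), Dusp5 (3.23 ± 0.113) and Dusp10 (1.17 ± 0.204). Dusp8 (0.13 ± 0.0207) and Dusp2 (0.123 ± 0.0597) were the neighbours that overlapped. The place of Dusp16 depends on the length used, since its 7 annotated transcripts cover 7798 bases of exon but the longest has 5104. Per kb of all its exons its level was 12.7 ± 0.121 CPM at 24 h, behind the means of Dusp6 (13.9 ± 0.846) and Dusp9 (12.9 ± 0.67), where the libraries of Dusp9 overlapped those of both others, and 10.7 ± 0.342 at 48 h, behind Dusp4, Dusp6 and Dusp9. Dusp4 led at 48 h with both lengths.

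**Figure D3:**
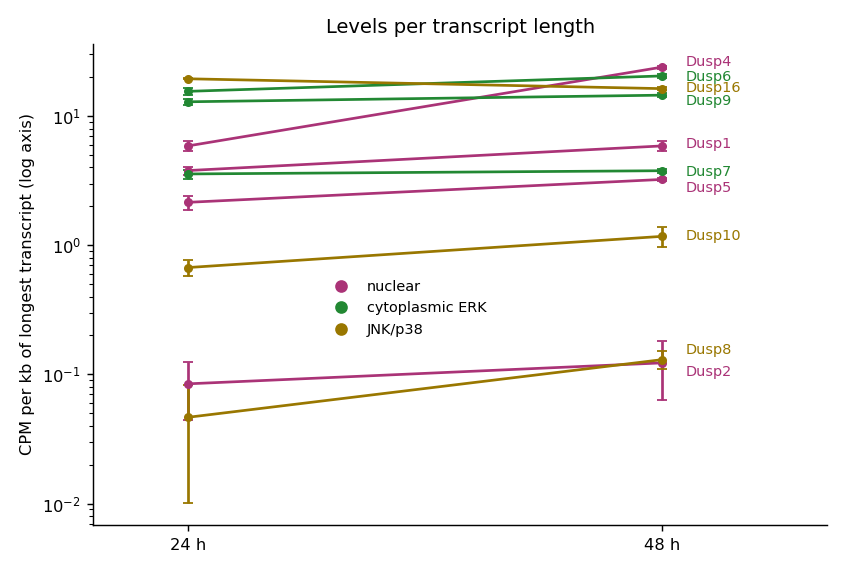
Mean level of each member at 24 h and 48 h in CPM per kb of its longest transcript, on a log axis, with SD bars (n = 3) and lines joining the times of a gene, coloured by class. Dusp4 goes from 5.87 to 23.9 and passes Dusp9, Dusp6 and Dusp16, and Dusp2 and Dusp8 lie below 0.2 at both times.

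Summed over the 10 members, the level was 64.0 ± 0.774 CPM per kb (SD, n = 3) at 24 h and 89.4 ± 1.93 at 48 h. Of this difference of 25.4 CPM per kb, Dusp4 made up 18.02 CPM per kb, or 70.9%. Without Dusp4 the sum was 58.1 ± 0.294 at 24 h and 65.5 ± 1.39 at 48 h. The nuclear class held 19.2%, 19.2% and 17.3% of the sum in the 24 h libraries and 37.6%, 37.3% and 36.2% in the 48 h libraries. The cytoplasmic ERK class held 49.97% ± 1.06 and then 43.3% ± 0.321 (SD, n = 3), although 2 of its genes rose, and the JNK and p38 class 31.5% ± 0.138 and then 19.7% ± 0.421. These shares add to a fixed total, so that a rise of Dusp4 alone lowers the others, and they were not tested. With Dusp4 left out of the sum, an alternative chosen after the data were seen, the nuclear share was 10.3% at 24 h and 14.1% at 48 h and the cytoplasmic ERK share 55.01% and 59.1%, so that the direction of the cytoplasmic share turned. The JNK and p38 share without Dusp4 was 34.6% and 26.9%.

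**Figure D4:**
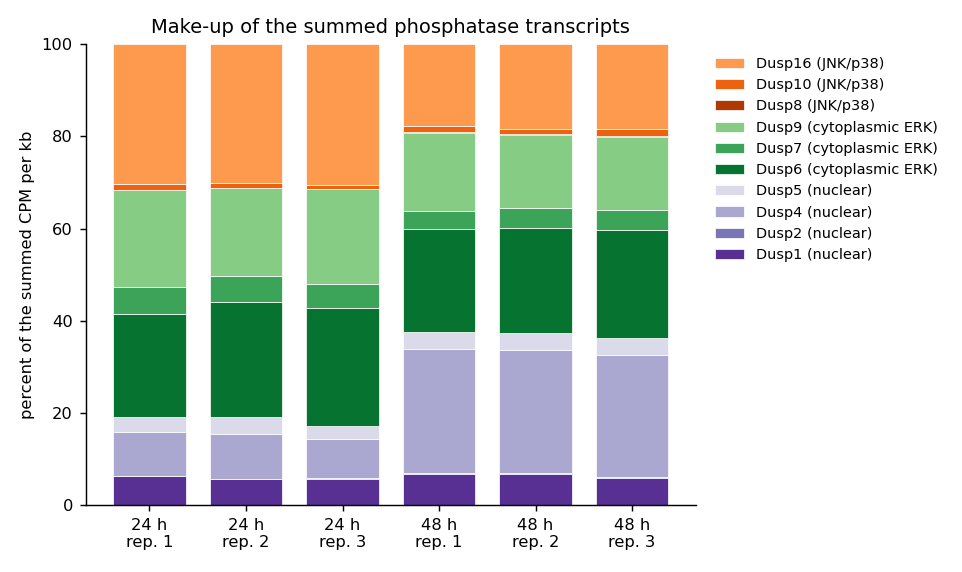
Percent of the summed CPM per kb of the 10 members held by each gene, as 1 stacked bar per library (linear axis from 0 to 100), with purple for nuclear, green for cytoplasmic ERK and orange for JNK and p38 phosphatases. Dusp4 takes 9.17% on average at 24 h and 26.7% at 48 h, and Dusp16 takes 30.4% and 18.2%.

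Ratios of counts within a library do not depend on the scaling between libraries, so each of the other 9 members was set against Dusp6, the cytoplasmic feedback phosphatase. The log2 ratio of Dusp4 to Dusp6 was higher at 48 h by 1.63, and the libraries did not overlap. The ratios of Dusp16, Dusp7 and Dusp9 to Dusp6 differed by -0.65, -0.31 and -0.23 and that of Dusp5 by 0.20, also without overlap. Each of these 5 ratios had p = 0.1 in a two-sided exact permutation test, which is the least that 3 libraries a side allow, and 0.18 after adjustment over the 9 ratios. The ratios of Dusp1, Dusp8, Dusp10 and Dusp2 overlapped between the times, with differences of 0.23, 1.20, 0.39 and 0.02 (exact permutation p between 0.2 and 1). No ratio could pass the threshold in this design. Leaving out 1 library moved some of the differences by over 1.5 times. That of Dusp5 was 0.08 and that of Dusp10 was 0.24 without replicate 3 of 24 h, that of Dusp9 was -0.14 without replicate 1 of 24 h, and that of Dusp2 changed sign.

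The variance of the counts within a time point was near the variance that counting alone gives for 4 members, at 0.858 times for Dusp2, 0.958 times for Dusp7, 0.981 times for Dusp5 and 1.03 times for Dusp16. For the other 6 members it was between 1.52 times (Dusp10) and 2.17 times (Dusp6), and 1.86 times for Dusp4. Each value has 4 degrees of freedom and is imprecise, and whether any member exceeds counting alone was not tested. Of the tested members Dusp8 and Dusp10 had the fewest counts and the widest intervals of fold change.

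Genes around the family were taken from 5 lists. All 14 MAP kinases passed the filter and all 14 were called, 9 higher and 5 lower, with a median log2 fold change of 0.27. The shares over all tested genes, given above, were 62.8% called, 30.9% higher and 31.9% lower. Mapk10 (mean 0.127 CPM at 24 h and 0.715 CPM at 48 h) and Mapk15 (1.16 and 0.410 CPM) had few counts. Each passed the filter only with the libraries of the time at which it was higher. Their inclusion itself asked for a difference, so the count of called MAP kinases is raised by it. Mapk3 (ERK1), a substrate of the ERK phosphatases, was at 41.7 ± 1.73 CPM at 24 h and 52.6 ± 2.7 CPM at 48 h (SD, n = 3), a rise of 0.33 on the log2 scale (adjusted p = 8.29e-06). Among the substrates of the JNK and p38 phosphatases, Mapk8 (JNK1) rose by 0.26, while Mapk9 (JNK2) and Mapk14 (p38 alpha) had log2 fold changes of -0.24 and -0.12, all called. The p38 genes Mapk12 and Mapk11 rose by 1.12 and 0.79, to mean levels of 5.69 and 4.51 CPM, and Mapk13 fell by 0.95 on the log2 scale. The rise of Mapk10 (JNK3) by 2.46 rested on 2 to 18 counts in a library.

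Of the 7 MAP kinase kinases 2 were called higher and 3 lower, or 71.4% called against 62.8% of all tested genes, with a median log2 fold change of -0.13. Map2k6, an activator of p38, was at 21.6 ± 0.574 CPM at 24 h and 6.62 ± 0.679 at 48 h (SD, n = 3; log2 fold change -1.70, adjusted p = 2.33e-11). Map2k1 (MEK1), which activates ERK, had a log2 fold change of -0.39 and Map2k2 (MEK2) one of 0.18, both called. Of the 8 other phosphatases that act on MAP kinases (tyrosine phosphatases and catalytic subunits of the PP2A and PP2C types), 6 were tested, 4 were called higher and 1 lower, or 83.3% called against the 62.8% of all tested genes, with a median of 0.12. Ppm1a, of the PP2C type, rose by 0.37, and Ptpn7, a tyrosine phosphatase of ERK and p38, fell by 0.83 on the log2 scale from a mean of 2.04 CPM.

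The next list held 16 genes of the atypical dual-specificity phosphatase group, and most of their products lack the MAP kinase binding domain of the typical family. Of these 10 were tested, 3 were called higher and 3 lower, and the median was 0.12. The 60% called was close to the 62.8% of all tested genes. Dusp14 moved against the typical members that rose, from 22.6 ± 1.68 CPM at 24 h to 6.49 ± 1.005 CPM at 48 h (SD, n = 3; log2 fold change -1.80, adjusted p = 9.4e-11). Dusp27, whose product is best known from muscle, was at 103 ± 1.68 CPM at 24 h and 123.5 ± 2.27 CPM at 48 h (log2 fold change 0.26, adjusted p = 3.92e-07). Dusp3 and Dusp11 rose by 0.36 and 0.13. All adjusted p-values of list genes are from the same edgeR fit as the members.

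The last list held 18 ERK feedback and target genes other than the Dusp genes, of which 15 were tested, 7 were called higher and 2 lower, with a median of 0.08. Here too 60% were called, against 62.8% of all tested genes. Sprouty and Spred proteins are feedback inhibitors that act upstream of ERK. On the log2 scale Spry4, Spred1 and Spry2 rose by 0.66, 0.61 and 0.59, Spry1 by 0.29 and Spred3 by 1.21, while Spred2 fell by 0.07 (adjusted p = 0.0449). Among the ETS factor genes of the PEA3 group Etv4 fell by 0.34 (adjusted p = 1.1e-05), Etv5 rose by 0.08 and Etv1, at -0.06, did not pass the test (adjusted p = 0.15). Myc rose by 0.62. The immediate-early genes Egr1 and Fos were at 1.12 ± 0.302 and 0.616 ± 0.161 CPM at 24 h (SD, n = 3) and did not pass the test (adjusted p = 0.375 and 0.833), and Ier2 had a log2 fold change of -0.01 (adjusted p = 0.811).

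**Figure D5:**
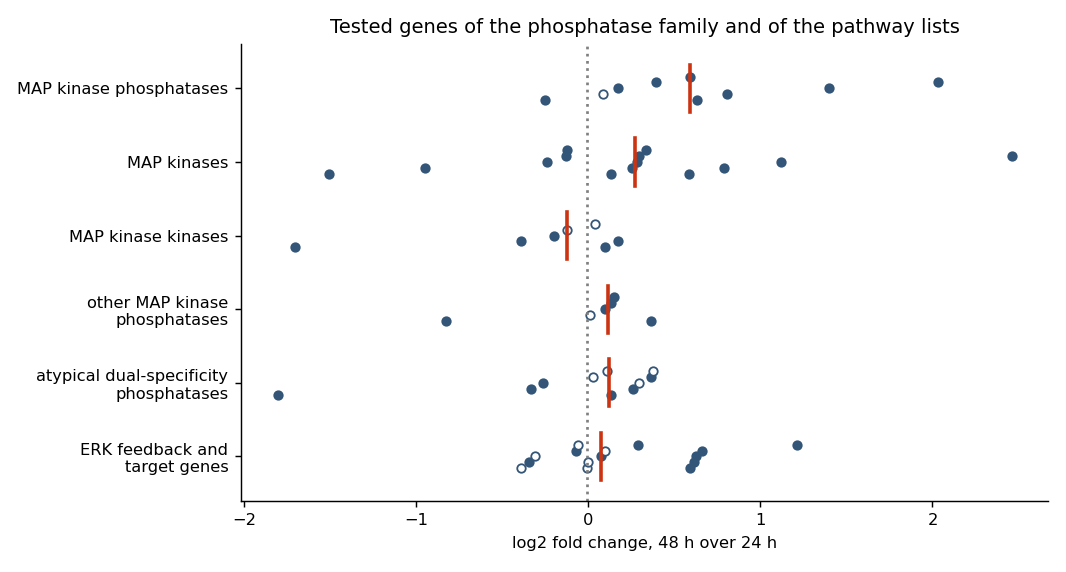
Log2 fold change of 48 h over 24 h for each tested gene of the MAP kinase phosphatase family and of 5 pathway lists, filled where called and open where not, with a red bar at the median of each row and a dotted line at the median of all tested genes. The red bar is at 0.59 for the family and between -0.13 and 0.27 for the lists, and the points of every row lie on both sides of 0.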

How the data were processed

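The authors deposited estimated counts for each gene in a single table whose name gives RSEM as the source, with the 6 libraries in columns. The submitters' processing notes list cutadapt 1.9.1, STAR 2.5.2, RSEM 1.3.0 and GRCm38. The annotation and the use of strand are not given in the sources used here. Symbols, positions and transcript lengths came from GENCODE M21 (GRCm38), which named 51633 of the 51912 identifiers. Counts were rounded, filtered by filterByExpr (minimum count 10), scaled by TMM and tested with edgeR 4.0.16 in R 4.3.3 (glmQLFit, glmQLFTest, group only). Standard errors are the fold change over the square root of F. The test was checked on simulated data in which a small part of the genes changed. That check does not cover a table in which 62.8% of tested genes are called. Alternatives were other scalings and filters, DESeq2 1.42.0, limma 3.58.1 (voom), unrounded counts, a replicate block, a GC and length offset, a stricter threshold, glmTreat and leaving out each library. The members and lists were chosen with earlier results of these data known. Every member is described, and only genes of the lists are named otherwise. Protein sequences were not used here.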

Additional observations from a re-analysis of the deposited data

How the results depend on the processing

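Over 17 alternative fits the number of members called was between 7 and 9, and the 1 member called lower was found in each. An adjusted p under 0.01 left 7 members. Against a 1.5-fold change 1 member was called, 1 higher and 0 lower, since that test asks for a larger change. Of the fold changes of single members under these alternatives, 146 kept direction and call, 5 lost the call and 1 gained it, all named in the report, and none reversed. With the replicate block 8 members were called, 7 higher and 1 lower, and 8 with the block and the GC and length offset together. Libraries of 1 number deviated from their group means with correlations of -0.05, -0.04 and -0.01, so replicate numbers were not taken to pair the libraries. Dusp8 was not tested when every library had to hold 10 counts. Leaving out 1 library took the ratio of Dusp2 to Dusp6, which had a difference of 0.02, to values from -0.28 to 0.45, with -0.07 and -0.16 without replicates 1 and 2 of 24 h and -0.28 and -0.11 without replicates 1 and 2 of 48 h. Class shares at 24 h and 48 h moved with the length used. Per kb of all exons they were 19.8% and 39.4% (nuclear), 55.6% and 45.7% (cytoplasmic ERK) and 24.7% and 14.9% (JNK and p38), and from counts alone 13.7% and 30.8%, 40.6% and 38.4%, and 45.7% and 30.8%. The direction of each class was the same under both lengths and counts. Depth limits Dusp2 and Dusp8, with at most 16 counts in a library.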
